A study of Mus musculus with 16 samples.

Results

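Liver RNA from mice that overexpressed LCAT in the liver was compared with liver RNA from mice given the control vector, labelled Vec and taken here as an empty vector. Primary liver cancer had been induced in all of these mice, and all were labelled wild type. LCAT, lecithin-cholesterol acyltransferase, is an enzyme that hepatocytes secrete into plasma. The comparison took in every library labelled LCAT-1 to LCAT-4 or Vec-1 to Vec-4, which is 8 of the 16 polyadenylated RNA libraries of the series and 4 in each group. The other 8 came from female mice with sham surgery or ovariectomy and are used below only for comparison, mostly near the end. The sources used here do not give, for the vector experiment, the sex, strain or age of the mice, the vector and its promoter, the species of the LCAT sequence, the way the cancer was induced, or whether tumour or surrounding tissue was taken. Below, values stand in the order of libraries 1 to 4, empty vector first, and numbers joined by a dash are the lowest and highest library of a group. The labels also do not say that the libraries of a group come from separate animals, so p-values measure the spread between these libraries, which may be technical.

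LCAT moves a fatty acid from lecithin to cholesterol on high-density lipoprotein, with apolipoprotein A1 as its activator, and so helps to carry cholesterol from other tissues to the liver. The liver disposes of cholesterol by secreting it into bile or turning it into bile acids. Hepatocytes divide their work along the lobule. Those around the central vein, under Wnt and beta-catenin control, make glutamine and carry much of the drug metabolism, whereas those around the portal vein make urea and glucose.

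LCAT libraries 1 and 4 stood apart from each other. Of 13095 genes tested, 3211 differed at least 2-fold between them, against 443 to 598 genes for any pair of empty vector libraries. Of these 3211 genes, 2912 had LCAT library 2 and 2887 had LCAT library 3 between libraries 1 and 4. Choosing genes by that gap favours such a place for the other libraries. LCAT library 1 differed at least 2-fold from libraries 2 and 3 in 1291 and 1481 genes. LCAT library 4 did so in 890 and 853 genes, and libraries 2 and 3 from each other in 520. The first principal component, with 57.0% of the variance, separated the treatments, and the second, with 20.2%, separated LCAT library 1 from 4. Depth ran from 12562943 to 20659336 reads. Albumin took at least 10.2% of reads in each empty vector library and 8.34 to 9.51% with LCAT. Of 22 hepatocyte markers, all detected, 9 rose and 2 fell (median log2 change 0.29), and 8 rose and 6 fell when transcript length and GC content were smoothed out (median -0.01). In whole tissue, fewer cells of a type and less RNA per cell cannot be told apart.

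Lcat itself rose only modestly. The deposited values are reads per gene divided by 1 size factor per library, called normalized read counts here. Lcat (chr8:105939551-105943382, minus strand, mm10) had 3348, 2926, 4521 and 2980.1 with the empty vector and 5014, 5074, 5106 and 4531 with LCAT overexpression. The groups did not overlap, although empty vector library 3 came within 10 counts of LCAT library 4. The means were 3444 ± 742 and 4931 ± 269.7 (SD, n = 4 each), 1.43-fold apart, and the log2 change was 0.54 ± 0.14 (SE; adjusted p = 0.0168), with a 95% interval of 0.22 to 0.86. An exact two-sided permutation test over the 8 libraries gave p = 0.0286, the smallest that 4 against 4 allows. The call did not hold without empty vector library 2 (0.47, adjusted p = 0.0523) or 4 (0.48, adjusted p = 0.0529), with equal library totals (0.35, adjusted p = 0.0679), or after smoothing for transcript length and GC content (0.14, adjusted p = 0.501). The sources used here leave unstated whether reads from the introduced LCAT sequence count under this gene. The sham libraries of the other experiment, from female mice, held 5662 ± 61.9 Lcat counts (SD, n = 4), above both groups of the vector experiment. The experiments share no libraries and differ in Y-linked messages, given below. The source of this gap was not tested.

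Changes with LCAT reached well beyond Lcat. Of 13095 genes with a mean of at least 10, 5332 (40.7%) passed an adjusted p of 0.05, with 2651 higher (20.2%) and 2681 lower (20.5%). The median log2 change over all genes was 0.00, and the quartiles lay at -0.42 and 0.42. Among called genes, 898 rose and 866 fell by at least 2-fold, 330 rose and 215 fell by at least 4-fold, and 164 rose and 90 fell by at least 8-fold. The groups did not overlap for 5304 genes (40.5%), with 2647 higher (20.2%) and 2657 lower (20.3%). Totals of the normalized counts were larger with LCAT, so setting the totals equal moved the median of all genes to -0.18 and the split to 1795 higher (13.7%) and 3963 lower (30.3%), or 31.2% higher among called genes in place of 49.7%. The changes below are relative to the deposited scaling.

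**Figure D1:**
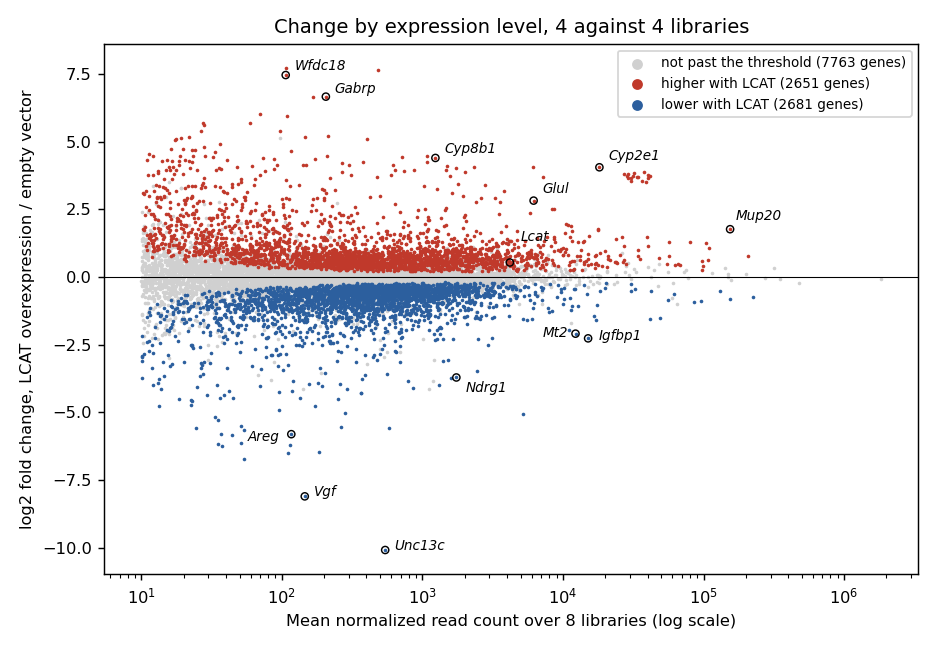
Each point is 1 of 13095 genes, with its mean normalized read count over 8 libraries on a log axis and the log2 fold change of LCAT overexpression over the empty vector (n = 4 libraries each). Red points rose and blue points fell at an adjusted p of 0.05; Lcat lies at 0.54, whereas Ndrg1 lies at -3.71 and Gabrp at 6.67.

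The share of genes that rose was larger among abundant messages, without a test of that difference. Of the 134 genes with a mean from 10000 to 30000, 48.5% rose and 14.2% fell, and of the 72 above 30000, 45.8% rose and 18.1% fell. Of the 4123 genes from 300 to 1000, 16.5% rose and 25.2% fell, and of the 2037 from 10 to 50, 20.3% rose and 11.1% fell. Over all 13095 genes tested, the log2 change had a Spearman's rho of -0.01 with mean level. The median log2 change was 0.31 from 10000 to 30000 and 0.33 above 30000. On values smoothed for length and GC these medians were 0.20 and 0.02. Above 30000, the median gap to the empty vector mean was 0.60 in LCAT library 1, 0.33 in library 2, 0.31 in library 3 and 0.15 in library 4.

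The change also followed transcript length. Across 12862 genes matched to an annotated transcript, Spearman's rho of the log2 change with the length of the longest transcript was -0.40, a description over genes that share libraries. The median log2 change went from 0.49 for the 644 genes of 500 to 1000 bases to -0.49 for the 679 genes of 8000 bases and over. Genes that rose had a median transcript of 2199 bases, genes that fell one of 4255 bases, and all tested genes one of 3076 bases. The LCAT libraries were unequal in this. Against the empty vector mean, rho was -0.55 for LCAT library 1, -0.38 for library 2, -0.39 for library 3 and -0.04 for library 4, and it ran from -0.33 to 0.22 for single empty vector libraries. With length and GC content smoothed out of each library, 2693 genes were higher (20.9%) and 2660 lower (20.7%), and 4100 of 5253 calls kept their direction and call. Most gene lists below are given also in that form. What gives rise to the relation with length was not tested.

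**Figure D2:**
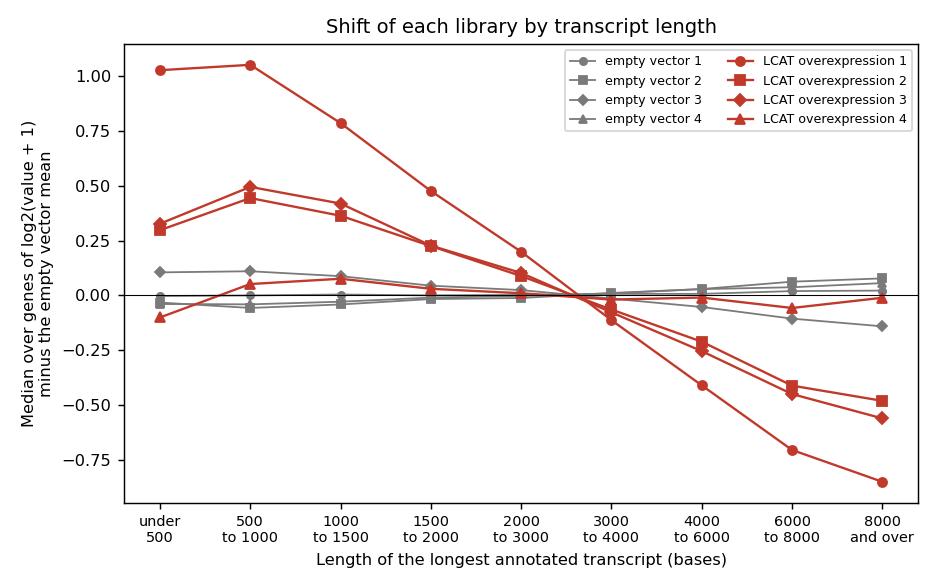
The horizontal axis gives bins of transcript length in bases, and the vertical axis the median over the genes of a bin of log2(value + 1) minus the empty vector mean. LCAT library 1 falls from 1.03 in the shortest bin to -0.85 in the longest, LCAT libraries 2 and 3 follow at a smaller slope, and LCAT library 4 stays between -0.10 and 0.08, near the empty vector libraries.

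The largest falls were in messages that were well detected with the empty vector and almost absent with LCAT. Unc13c, which primes vesicles for release in neurons, had 1024, 1163, 1045 and 1113 with the empty vector and no read in any LCAT library. Counted against 3 reads over the LCAT group, its level was at least 1143-fold lower, and it had no read in any of the 8 libraries of the surgery experiment either. Vgf, a precursor of secreted peptides, fell from 342, 352, 327 and 142 to no read in any LCAT library, and Arhgap40 fell from 125, 111, 77.9 and 113 to no read. In all, 13 tested genes had no read in any LCAT library, 7 of them with a mean of at least 50 with the empty vector. They passed the filter on the mean through the empty vector libraries alone. Areg, which encodes the EGF receptor ligand amphiregulin, went from 229 ± 21.8 to 4.70 ± 4.63 (SD, n = 4 each), and Gucy2c, an intestinal receptor guanylate cyclase, from 354, 415, 314 and 364 to 4.67, 5.50, 6.26 and 0. Aldh1l2, a mitochondrial folate enzyme, fell from 299–355 to 5.22–17.1 and Ffar4, a receptor for long-chain fatty acids, from 449.9–526 to 10.8–42.0. Fstl3, which binds activin, fell from 472–566 to 0–43.8. Others among the 15 were Xlr3b, Olfr815, Spata20, Tdrd12, Cpne1 and Adnp. Cpne1 and Adnp were uneven among LCAT libraries: Adnp, a zinc finger transcription factor, had 1026, 1149, 848 and 1089 with the empty vector and 0, 486, 9.39 and 40.2 with LCAT. Its adjusted p of 0.0226 no longer passed without LCAT library 3 (log2 change -5.23) or without empty vector library 1, 2 or 4 (-5.58, -5.52 and -5.55).

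The 15 largest rises took in genes of several tissues. Wfdc18, a small secreted protein with a whey acidic protein domain, had no read with the empty vector and 51.3, 219, 308 and 274 with LCAT, at least 285-fold higher against 3 reads over the group. Gabrp, a subunit of an ion channel gated by GABA, rose from 3.51, 2.44, 4.39 and 0 to 65.3, 425, 462 and 681. The water channel gene Aqp5 went from 10.5, 0, 0 and 0 to 28.0, 103, 169 and 164, the tight junction gene Cldn7 from 16.7, 0, 13.2 and 6.12 to 131, 109, 147 and 168 and the metalloproteinase gene Mmp7 from 26.3, 0, 7.68 and 14.9 to 126, 139, 216 and 170.0. LCAT library 1 was the lowest LCAT library for Wfdc18, Gabrp and Aqp5. Elovl3, an enzyme that elongates fatty acids, rose from 50.9, 4.88, 5.49 and 56.8 to 185, 705, 1062 and 1164. Igfbp2, which binds insulin-like growth factors, rose from 162, 85.4, 15.4 and 141 to 538, 1649.7, 2988 and 3049, and Hamp2, a copy of the hepcidin gene, from 7.90, 0, 24.1 and 22.7 to 135, 239, 272 and 235. Slc22a28, Tesc and Cyp2c38 rose from 0–17.5, 0–3.49 and 5.49–20.1 to 135–453, 101–166 and 140.0–469.8. In all, 30 tested genes had no read with the empty vector, 9 of them with a mean of at least 50 with LCAT. They passed the filter on the mean through the LCAT libraries alone. Elovl3, Hamp2, Igfbp2, Mmp7 and Marco did not pass with LCAT libraries 1 and 4 alone against the empty vector, where 8.15% of genes rose and 8.76% fell.

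Genes with a change of at least 2-fold were also named by their abundance. Mup20, a major urinary protein made by male mouse liver, rose from 73947, 65791, 71785 and 68609.7 to 251252, 222138, 256119.9 and 226389, a log2 change of 1.77 ± 0.08 (SE; adjusted p = 3.72e-06). Serpina3k, a serine protease inhibitor, rose from 67131–73972 to 143344–153558. Apoa2, the second protein of high-density lipoprotein, rose from 33587, 30208, 36218 and 30892 to 107781, 75103, 82662 and 59345. Serpina1e and the near-identical Mup13, Mup14 and Mup17 were also higher, but reads may be split among copies of these families. Spp1, which encodes the secreted glycoprotein osteopontin, fell from 69260.1, 68667, 84682 and 67413 to 21807, 24944, 28793 and 27299.7, and Fn1, fibronectin, from 63156, 69424, 47559 and 64227 to 14596, 22186, 19733 and 29786. Igfbp1 fell from 24871, 25441, 23534 and 24853 to 2649, 5373, 6518 and 7489.8, with the lowest value in LCAT library 1. The metal-binding Mt1 and Mt2 fell from 24366–27737 and 18719.5–21553 to 5620.0–14427 and 3200.2–6887. Serpina3n and Itih3, made in the acute phase, fell from 23495–25257 and 22452–24208 to 8571–9307 and 10785–11881, and the desaturase gene Scd2 from 17119–17577 to 6658–9951. Each of these 8 falls was without overlap between groups, as were falls in 20.3% of all genes tested.

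Most genes of the hypoxia response fell with LCAT. When oxygen is short, the HIF factors escape degradation and switch on genes for glucose uptake, glycolysis and vessel growth. Of 22 listed genes tested, 15 fell and 1 rose, with a median log2 change of -1.02; the background was 20.5% falling and a median of 0.00. Smoothing out length and GC content gave 15 lower, 1 higher and a median of -1.03, and LCAT libraries 1 and 4 alone gave 14 lower. Slc2a1, the glucose transporter GLUT1, had 2401, 2645, 2437 and 2477 with the empty vector and 362, 269, 283 and 255 with LCAT, a log2 change of -3.10 ± 0.12 (SE; adjusted p = 1.5e-06). Ndrg1, a gene induced by hypoxia and stress, had 3218, 3411, 3036 and 3286 against 189.8, 263, 261 and 283, a log2 change of -3.71 ± 0.13 (SE; adjusted p = 1.23e-06). Ero1l, an oxidase that forms disulfide bonds in the endoplasmic reticulum, had 4479, 4704, 4201 and 4637 against 319, 399.5, 397 and 525. In all 3 genes every empty vector library lay more than 6-fold above every LCAT library. Egln3, an oxygen-dependent prolyl hydroxylase that acts on HIF, fell from 2528–2811 to 198–414, Stc1, stanniocalcin, from 915–1074 to 62.2–125, Ankrd37 from 318–398 to 21.8–39.6, and Adm, the vessel-dilating peptide adrenomedullin, from 429.8–453 to 40.4–60.3. Vegfa, the main growth factor for vessels, fell less, from 3855, 4060.0, 3403 and 3964 to 1034, 1411, 1491 and 1765. Also lower with LCAT were Hk2 (log2 change -3.12), Egln1 (-1.22), Kdm3a (-1.07), P4ha2 (-0.97), Pgk1 (-0.66), Bnip3 (-0.64) and Ldha (-0.45), all past the threshold. Higd1a rose (0.48, adjusted p = 0.0374), a call lost without LCAT library 3 (0.45) or any of the empty vector libraries (0.45 to 0.53). Pdk1, Bnip3l, P4ha1, Mxi1, Pfkfb3 and Pfkfb4 did not pass, with log2 changes from -0.48 to 0.36. List members named beside those that the naming rule picked were chosen after their values were seen, here and below.

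The promoters of 3 of these genes are printed to show the core letters of the HIF binding element. Each is 300 bases, 250 before and 50 after an annotated start, from RefSeq on GRCm38.p6, in the direction of the gene, with ACGTG or GCGTG on either strand in capitals.
Slc2a1 promoter, chr4:119108495-119108794, plus strand: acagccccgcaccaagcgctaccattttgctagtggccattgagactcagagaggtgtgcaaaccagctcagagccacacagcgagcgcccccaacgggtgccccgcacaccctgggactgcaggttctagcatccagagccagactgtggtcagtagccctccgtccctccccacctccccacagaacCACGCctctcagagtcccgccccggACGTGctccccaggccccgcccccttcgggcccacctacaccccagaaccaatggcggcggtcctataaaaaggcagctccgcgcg
Egln3 promoter, chr12:54203825-54204124, minus strand: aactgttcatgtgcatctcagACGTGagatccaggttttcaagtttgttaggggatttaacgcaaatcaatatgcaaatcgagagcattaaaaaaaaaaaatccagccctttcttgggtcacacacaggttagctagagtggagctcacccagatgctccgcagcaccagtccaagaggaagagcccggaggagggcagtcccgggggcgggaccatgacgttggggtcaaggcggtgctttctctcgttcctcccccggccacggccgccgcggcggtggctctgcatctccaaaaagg
Adm promoter, chr7:110627407-110627706, plus strand: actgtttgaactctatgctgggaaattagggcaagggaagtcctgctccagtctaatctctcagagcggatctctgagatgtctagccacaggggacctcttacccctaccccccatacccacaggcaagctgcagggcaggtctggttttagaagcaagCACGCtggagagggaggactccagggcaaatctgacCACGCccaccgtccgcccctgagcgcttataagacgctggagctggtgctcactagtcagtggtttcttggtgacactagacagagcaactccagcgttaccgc
The Slc2a1 promoter holds 2 matches, 1 on each strand, the Egln3 promoter 1 on the printed strand, and the Adm promoter 2 on the other strand. The table held promoters for 18 of the 22 hypoxia genes tested, and 21 of their 26 promoters (80.8%) held a match, beside 14380 of all 32851 promoters (43.8%). The 3 genes and the letters were chosen after the values were seen, and a match is a description of sequence.

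Immediate early genes, which growth factors and stress induce within minutes, were lower as well. Of 20 tested, 16 fell and none rose, with a median log2 change of -1.07 (-0.94 and 16 lower with length and GC content smoothed out). Egr1, a zinc finger transcription factor, fell from 2849.9, 2933, 2489 and 2688 to 523, 566, 521 and 659.8. Junb, a subunit of AP-1, fell from 3203, 3359, 3134 and 3136 to 899, 951, 999.7 and 1021, and Btg2, an antiproliferative gene that p53 also induces, from 4027, 4253, 3848 and 4361 to 943, 805, 811 and 851. The 3 genes showed no overlap, as did 40.5% of all genes tested. They were named for small p-values, a choice that favours a gap wide beside the spread within groups. Klf4 fell from 602–834 to 40.4–74.2, Fos from 203–259 to 20.9–59.4 and Ier3 from 1051–1152 to 229–324. Myc did not pass, with 282, 206, 245 and 190.5 against 216, 166, 243 and 213.

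Targets of p53, the factor that answers DNA damage, were lower in 13 and higher in 2 of 20 cases, with a median log2 change of -0.74 (-0.68 smoothed). Cdkn1a, the cell cycle inhibitor p21, had 4013, 4304, 3921 and 4098 with the empty vector and 1711, 1546, 1560.1 and 1397 with LCAT, and Tnfrsf10b, a death receptor, had 337, 356, 324 and 309 against 93.3, 83.6, 97.1 and 80.4. The Cdkn1a groups did not overlap, and its log2 change was -1.40 ± 0.08 (SE; adjusted p = 1.25e-05). Ei24 rose, with 2319, 2056, 2327 and 1895 against 2954, 3079, 3064 and 3073. In the integrated stress response, in which ATF4 drives amino acid synthesis and stress genes, 15 of 22 fell and none rose (median -0.77, -0.94 smoothed). Chac1, an enzyme that degrades glutathione, fell from 149–162 to 58.7–73.0, the transcription factor gene Atf3 from 304–333 to 149–175, and the lipoprotein receptor gene Vldlr from 183, 244, 181 and 197 to 23.3, 18.7, 11.5 and 32.4. Apaf1, which forms the apoptosome, fell from 239–287 to 52.9–84.7, while Bik, a promoter of apoptosis, rose from 24.5–28.1 to 100.4–122. The list of apoptosis regulators had 6 higher and 5 lower of 26, near the 20.2% and 20.5% of all genes. With smoothing or with equal totals, 8 were lower.

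Glycolytic genes moved in both directions. Liver normally uses glucokinase and the liver pyruvate kinase, whereas muscle, embryonic and tumour cells use other forms. Of 24 genes tested, 7 rose and 12 fell, beside 20.2% and 20.5% of all genes (median -0.31, -0.38 smoothed). Pfkp, the platelet form of phosphofructokinase, fell from 2411, 2521, 2366 and 2549 to 114, 154, 174 and 182, and Pkm, the muscle pyruvate kinase gene, from 5003, 5392, 5128 and 5063 to 1216, 1018, 1098 and 990.5. By contrast, Pklr, the liver pyruvate kinase gene, rose from 4037, 4032, 4103 and 4115 to 8263, 9433, 9189 and 10291 (log2 change 1.19). The 3 genes had groups without overlap, as did 40.5% of all genes tested. Among genes of glucose and glycogen synthesis, 7 rose and 4 fell of 18, beside 20.2% and 20.5% of all genes (median 0.07, -0.11 with equal totals). Fbp1, fructose bisphosphatase, rose from 4144, 4200.3, 4198 and 4188 to 9603, 10231, 11639 and 10702, glycogen synthase Gys2 from 1928–2182 to 3047–4742 and liver glycogen phosphorylase Pygl from 4325–4608 to 7280.2–7956, while Pgm1, a phosphoglucomutase, fell from 491–545 to 156–244.

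Of 31 growth factor genes 9 rose and 10 fell, beside 20.2% and 20.5% of all genes (median 0.08, -0.11 with equal totals). With length and GC content smoothed out 15 rose and 9 fell (median 0.50), and with LCAT libraries 1 and 4 alone 2 rose and 8 fell. Igfbp3, which carries insulin-like growth factors in plasma, fell from 4814, 5132, 5134 and 4982 to 801, 893, 873 and 970.4. Fgfr1, a fibroblast growth factor receptor, fell from 1221, 1259.8, 1001 and 1065 to 114, 173, 181 and 201, and Btc, the EGF receptor ligand betacellulin, from 543, 654, 499 and 629 to 57.6, 97.9, 104 and 109.7. Igfals, the acid-labile subunit that carries these growth factors with their binding protein, rose from 184, 162, 206 and 185 to 778, 849, 958 and 884. The fetal growth factor gene Igf2, listed among liver tumour markers, fell from 335, 384, 284 and 355 to 26.4, 34.1, 38.6 and 29.4, a log2 change of -3.37 ± 0.16 (SE; adjusted p = 3.72e-06).

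The tumour and oncofetal marker list as a whole had 8 members higher and 10 lower of 30 (median -0.29, -0.41 smoothed). Of all genes 20.2% rose and 20.5% fell. Without LCAT library 1, 16 fell. Cdkn2a, which encodes p16 and p19ARF, fell from 217, 241, 276 and 242 to 62.2, 48.4, 71.0 and 54.1, and Gprc5b, an orphan receptor, from 1028–1327 to 259.8–343. Krt19, a keratin of bile duct and progenitor cells, rose from 46.5, 26.8, 25.2 and 28.8 to 263, 428, 503 and 445. Afp, alpha-fetoprotein, had 5665, 4458, 6148 and 4952 with the empty vector and 7238, 4344, 4023 and 2937 with LCAT, with an adjusted p of 0.424, and Gpc3, glypican 3, had 2540.2, 2009.9, 2558 and 2221 against 2862, 1978, 1771 and 1321, with an adjusted p of 0.316.

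Among the 41 lists of gene function, that of pericentral and Wnt target genes had the largest median rise. Of 22 tested, 19 rose and 1 fell, with a median log2 change of 2.60, where 20.2% of all genes rose. The median was 2.58 with length and GC content smoothed out, and 13 members rose with LCAT libraries 1 and 4 alone. Glul, glutamine synthetase of the last rows of cells around the central vein, had 1651, 1239, 1237 and 1608 with the empty vector and 4920.4, 10759, 12743 and 15285 with LCAT. Cyp2e1, which oxidizes ethanol, had 2574, 1583, 803 and 3123 against 10978, 33358, 43439.6 and 49424. Cyp1a2, which oxidizes caffeine, had 795, 457, 522 and 688 against 3894, 4606, 4883 and 4932, a log2 change of 2.92 ± 0.18 (SE; adjusted p = 1.44e-05). LCAT library 1 was the lowest LCAT library for each of the 3 genes and still lay above every empty vector library. Rhbg, an ammonium transporter, rose from 24.6, 12.2, 17.6 and 10.5 to 163, 185, 209.8 and 229, Slc1a2, a glutamate transporter, from 61.4, 25.6, 26.3 and 175 to 431, 1257, 1506 and 2241, and Oat, ornithine aminotransferase, from 386, 152, 151 and 438 to 876, 3089, 4144 and 5033. Feedback genes of the Wnt pathway were less abundant and rose as well. Axin2, part of the beta-catenin destruction complex, had 3.51, 6.10, 7.68 and 10.5 against 29.6, 100.2, 102 and 131, and Notum, an enzyme that inactivates Wnt proteins, had 22.8, 7.32, 9.87 and 22.7 against 137, 288, 296 and 403. Lgr5, a receptor for R-spondins, had 5.26, 1.22, 2.19 and 0 against 4.67, 30.8, 24.0 and 35.5, so that LCAT library 1 lay within the empty vector range. The other members that rose were Sp5, Nkd1, Rgn, Tbx3, Cyp27a1, Gulo, Lect2, Aldh1a1, Rnf43 and Tcf7, with log2 changes from 0.68 to 4.75. The Rnf43 call was lost without LCAT library 2, 3 or 4 or empty vector library 2 or 4 (0.61 to 0.79), and the Tcf7 call without LCAT library 2, 3 or 4 or empty vector library 1, 3 or 4 (0.73 to 1.05). Slc1a4, a transporter of neutral amino acids, fell from 739–877 to 261–306. Ctnnb1, which encodes beta-catenin itself, and Znrf3 did not pass (-0.02 and -0.38).

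**Figure D3:**
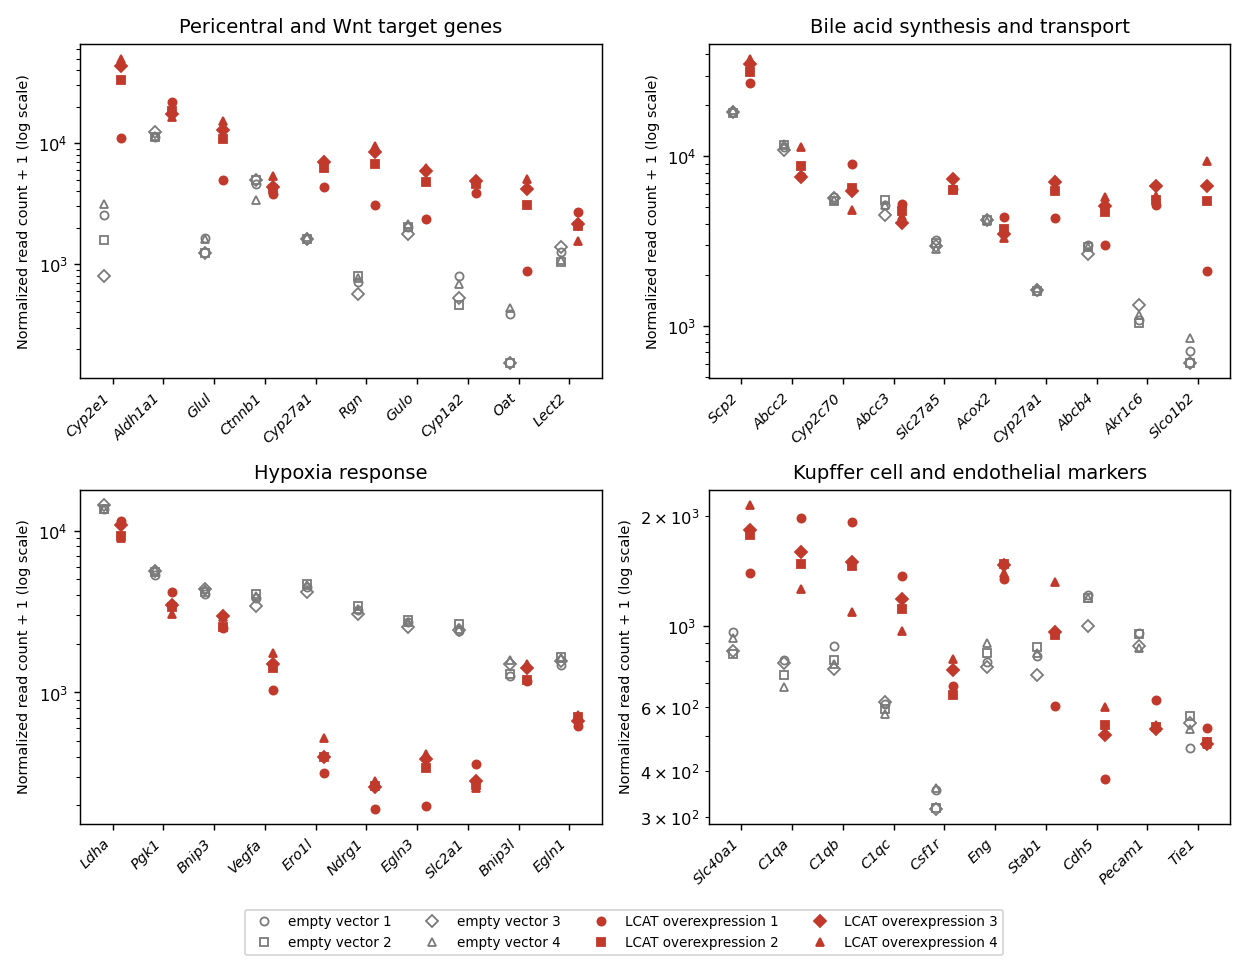
Normalized read counts plus 1 on log axes for the 10 tested members of highest mean in each of 3 gene lists, and the 5 of highest mean among Kupffer cell and among endothelial markers. Open grey symbols are the 4 empty vector libraries and filled red symbols the 4 LCAT libraries. Cyp2e1 lies at 803–3123 in empty vector libraries, against 10978–49424 in LCAT libraries, whereas Ndrg1 lies at 3036–3411 against 189.8–283.

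Bile acid genes rose in 18 and fell in 2 of 26 cases, with a median log2 change of 1.03 (1.03 smoothed, 15 higher with LCAT libraries 1 and 4 alone). Bile acids are made from cholesterol by a route that starts with Cyp7a1, the rate-limiting enzyme, or by one that uses Cyp27a1 and Cyp7b1. Cyp7a1 had 82.5, 59.8, 16.5 and 121 with the empty vector and 394, 1094, 1197 and 1966 with LCAT. Cyp8b1, which directs synthesis to cholic acid, had 114, 102, 51.6 and 169 against 944, 2406, 2984 and 3124, a log2 change of 4.40 ± 0.46 (SE; adjusted p = 0.000208). Cyp7b1 rose from 222, 113, 116 and 266 to 904, 1745, 2389 and 2475 and Cyp27a1 from 1603–1677 to 4319.9–7283. Akr1c6 and Amacr, which act later, rose from 1046–1329 and 921–1011 to 5202–6701 and 2039–2365, and Baat, which joins bile acids to taurine, from 1101–1334 to 2678–3170.3. Slc10a1, the sodium-dependent carrier NTCP of hepatocytes, had 567, 328, 374 and 471 against 2763, 3392, 3708 and 3959, and the carrier gene Slco1a1 had 117, 187, 61.4 and 263 against 551, 2636, 3261 and 4679. Slco1b2 and Slco1a4 had log2 changes of 2.91 and 3.36, and Abcb11, the bile salt export pump, one of 0.93. Slc10a2, the carrier that takes up bile acids in ileum and bile ducts, fell from 1851–2033 to 1019.6–1128, and Abcc2, which exports conjugates into bile, fell by 0.39 on the log2 scale, a call lost without any 1 library other than LCAT library 4 (-0.42 to -0.33). Nr0b2, which encodes the repressor SHP, did not pass (adjusted p = 0.0651), while Nr1h4, the bile acid receptor FXR, rose from 1272, 1300.1, 1401 and 1276 to 2156, 2193, 2164 and 1950.1. Of 34 hepatocyte transcription factors and nuclear receptors, 11 rose and 3 fell (median 0.06), 7 rose and 5 fell with equal totals (median -0.13), and 7 fell without LCAT library 4.

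Enzymes of drug metabolism were mostly higher. Of 29 listed cytochromes P450, 18 rose and 1 fell (median 0.95, 0.75 smoothed), and of 32 conjugating and flavin enzymes 20 rose and none fell (median 0.91, 0.71 smoothed). Cyp2f2, which marks periportal hepatocytes, rose from 4931, 4003, 3993 and 4364 to 21049, 17560.5, 15366 and 13315, so that a periportal gene rose beside the pericentral ones. Cyp2d9 rose from 5248–5450.1 to 15114–19679.6, the glucuronosyltransferase Ugt2b1 from 1544–1821 to 3975–6906, the flavin enzyme Fmo1 from 1347–1534 to 2691–3228 and the glutathione transferase Gstt2 from 231–286 to 589–854. Cyp3a13 was the member that fell, from 3306–3499.6 to 2344–2724. Nr1i3, the xenobiotic receptor CAR, rose from 447, 335, 352 and 497 to 1056, 1802, 2041 and 2375. Members of these families share sequence, and the treatment of reads shared by copies is not stated.

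Genes that male mouse liver expresses more than female liver rose almost throughout, in 25 of 26 cases with none lower and a median log2 change of 1.62 (1.50 smoothed, 20 higher with LCAT libraries 1 and 4 alone). The exception was Scara5, which did not pass (-0.91). The list includes several near-identical Mup genes. Hsd3b5, a steroid dehydrogenase, rose from 9.65, 3.66, 0 and 38.4 to 84.0, 293, 374 and 374, Cyp4a12a from 2215–2353 to 4752–5879.6 and Cyp2u1 from 80.1–90.2 to 304–418. Of 20 female-biased genes 4 rose and 7 fell, beside 20.2% and 20.5% of all genes. With equal totals 2 rose and 8 fell. Sult2a1, a sulfotransferase for bile acids and steroids, rose from no read in any empty vector library to 57.6, 28.6, 27.1 and 24.7. Cyp17a1 fell from 2589–3009.8 to 1370.5–2138. Without LCAT library 2 or 3 or empty vector library 1 or 3, as with smoothing, 4 female-biased genes fell. Y-linked messages were present in all 8 libraries, with a sum over 4 genes from 1604 to 2531. The libraries of the female surgery mice held 0.675 to 7.38, so each vector library held RNA from male cells. Of the 4 genes, 3 were lower with LCAT: Ddx3y fell from 1182–1332 to 772–1096, Kdm5d from 214–258 to 96.8–164 and Uty from 259–276 to 110.4–215.

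The urea cycle and amino acid breakdown were higher, with 29 of 40 genes up and 1 down (median 0.79, 0.55 smoothed). Gnmt, which uses up methyl groups from methionine, rose from 1977, 1637, 1926 and 1995 to 10325, 8829, 10562 and 9026, a log2 change of 2.36 ± 0.10 (SE; adjusted p = 2.75e-06). Otc and Asl, enzymes of the urea cycle, rose from 1157, 1112, 1074 and 1247 and 2323, 2215, 2132 and 2154 to 3663, 3558, 3862 and 3705 and 6826, 6487, 8121 and 7360.0. The 4 libraries of each group lay close together in these genes, which naming by small p-values favours. Glud1, glutamate dehydrogenase, was the 1 that fell, from 21558–23303 to 16717–17389.

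Fatty acid oxidation rose in 22 of 29 genes and fell in none (median 0.65; 20 higher, 2 lower and 0.49 smoothed). Acaa1b, a thiolase of the peroxisome, rose from 4734, 4915, 5246 and 5275 to 16427, 14335, 16902 and 14341, and Fabp1, which binds fatty acids in hepatocytes, from 26700.2, 23603, 24769 and 24476 to 52830.3, 53227, 63589 and 51348. Fat synthesis and storage rose in 16 and fell in 4 of 30 genes (median 0.47, 0.24 smoothed), with 9 lower with equal totals. Thrsp, a regulator of fat synthesis, rose from 7542, 7485, 8890.5 and 8020.3 to 37498, 26104, 26404 and 19312, the elongase gene Elovl6 from 2058, 2155, 2196 and 2199.9 to 5465, 5179, 4981 and 5677 and malic enzyme Me1 from 4220.4–4452 to 9312–9681. Scd2 went the other way, as given above.

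Cholesterol and lipoprotein genes, which lie nearest to the reaction of LCAT, were divided. In cholesterol synthesis 7 rose and 9 fell of 23, with a median of 0.02 that turned to -0.17 with equal totals. Of all genes 20.2% rose and 20.5% fell. Lss and Sqle, which make the sterol ring, fell from 3511, 3423, 3239.6 and 3444 and 5835, 5885, 5689 and 5854 to 2078, 2182, 1939 and 2055 and 4115, 3363, 3326 and 2854. Srebf2, the main activator of the pathway, fell from 1673–1892 to 1067–1366, while Tm7sf2, a sterol reductase, rose from 931–1085 to 1752–2217. Without LCAT library 2 or 3 or empty vector library 1 or 4, 4 or 5 members were called lower. In lipoprotein handling 10 rose and 6 fell of 29 (median 0.30, 0.13 smoothed), with the falls near the 20.5% of all genes. Pon1, an esterase bound to high-density lipoprotein, had 204, 188, 113 and 269 with the empty vector and 1419, 3161, 4155 and 4351 with LCAT, a log2 change of 4.01 ± 0.39 (SE; adjusted p = 0.000149). Apoa1, the activator of LCAT, had 294989.9, 266310.4, 270767 and 266949.8 against 499774, 337510.1, 342670.4 and 257934, and did not pass (adjusted p = 0.149). Apoc4 rose from 4433–4764 to 8639–17476 and Apoe from 147045–157988 to 200979–335732 (log2 change 0.76, 0.41 smoothed). The exporters of cholesterol to high-density lipoprotein fell: Abca1 had 5501, 5682, 4771 and 5559 against 2368, 2838, 2604 and 4341, and Abcg1 had 218, 251, 211 and 225 against 126, 143, 135 and 162. Scarb1, the receptor that takes cholesteryl ester from high-density lipoprotein, fell from 5842–6053 to 4285–5049.5. Lipg and Lipc, lipases that act on high-density lipoprotein, rose with log2 changes of 1.86 and 0.96.

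**Figure D4:**
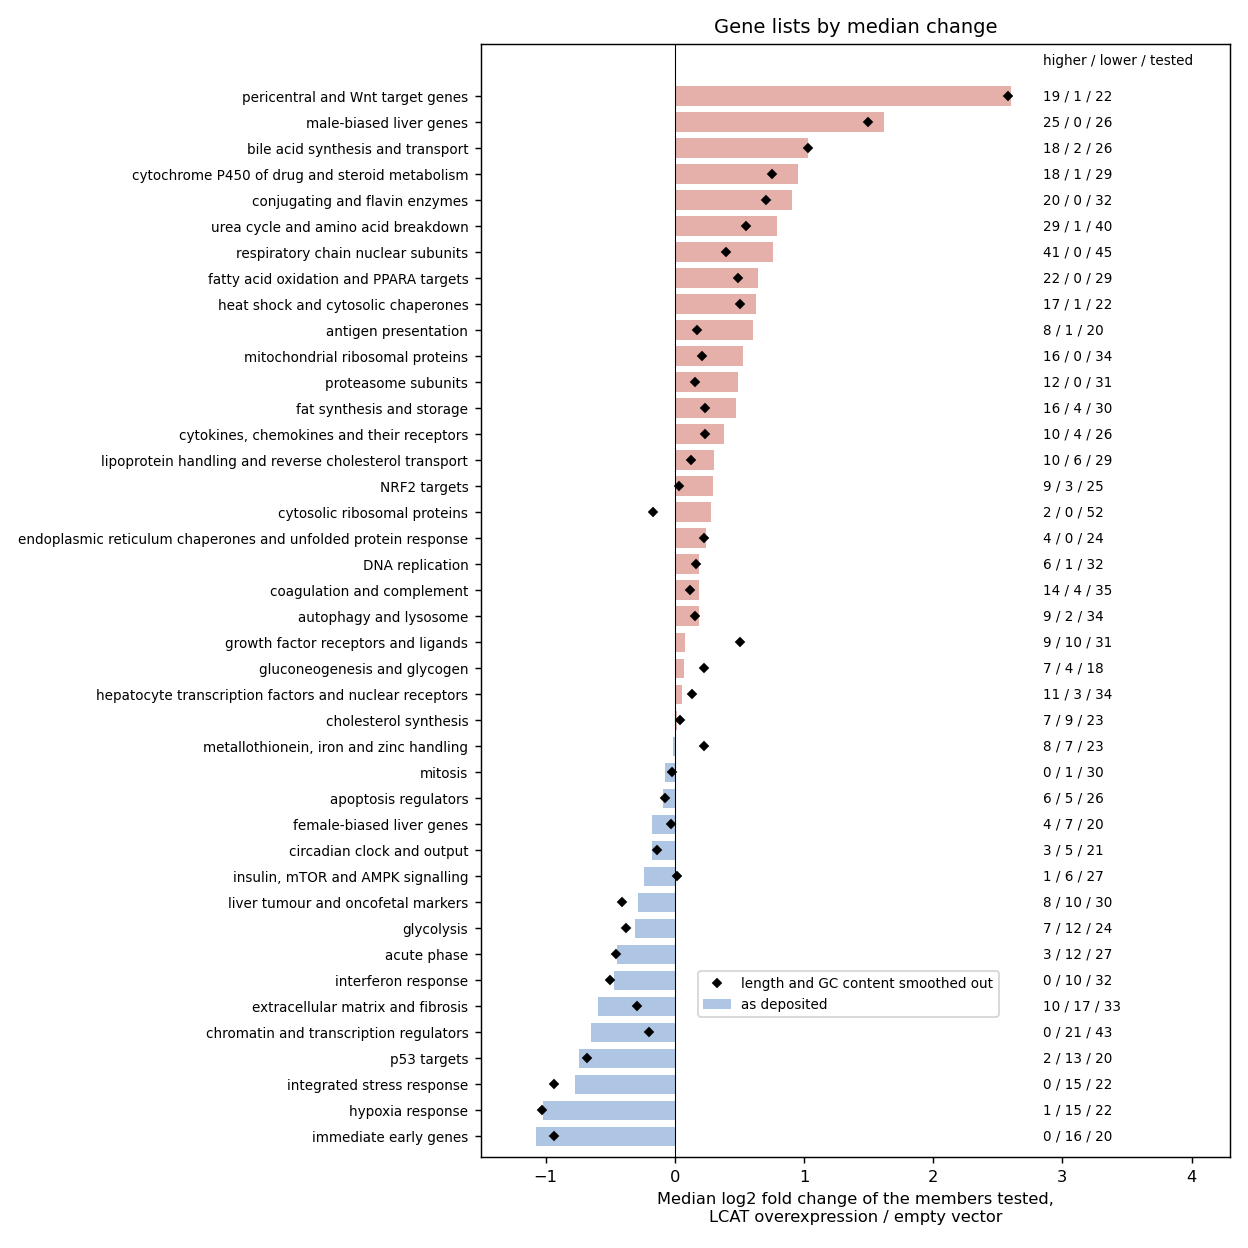
Bars give the median log2 fold change of the tested members of each of 41 gene lists on the deposited values, and diamonds the median after smoothing for transcript length and GC content; the numbers at the right count members higher, lower and tested. The medians run from -1.07 for immediate early genes to 2.60 for pericentral and Wnt target genes, and the diamond of the cytosolic ribosomal proteins lies at -0.17 beside a bar at 0.28.

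Lists of short or long transcripts moved with length, so that both forms are needed for them. Nuclear genes of the respiratory chain, with a median transcript of 983 bases, rose in 41 of 45 cases and fell in none (median 0.76); with length and GC content smoothed out 37 still rose (median 0.40), and with LCAT libraries 1 and 4 alone 15. Ndufv1 of complex I rose from 973, 1100.1, 1067 and 1129.7 to 2764, 1948, 2345 and 1859 and Sdha of complex II from 4417, 4660.1, 4466 and 4519 to 6171, 6383, 6614 and 7005. Cytosolic ribosomal proteins, with a median transcript of 910 bases, had a median of 0.28 and 2 of 52 higher, but the median turned to -0.17 with 17 lower and none higher when smoothed, and 20 rose without LCAT library 4. The 2 calls, Rpl6 (0.49) and Rpl10 (0.39, -0.06 smoothed), were lost when single libraries were left out: Rpl6 without LCAT library 1 (0.37) or 3 (0.42) or any empty vector library (0.48 to 0.53), and Rpl10 without LCAT library 2 (0.42) or 3 (0.40) or any empty vector library (0.37 to 0.43). Mitochondrial ribosomal proteins rose in 16 of 34 cases (median 0.53; 14 higher and 0.21 smoothed), 10 rose with equal totals, and 2 with LCAT libraries 1 and 4 alone. Leaving out 1 library at a time gave 7 to 26 of them higher, with 26 without LCAT library 4 and 7 without empty vector library 1.

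Proteasome subunits rose in 12 of 31 cases (median 0.49; 7 higher and 0.16 smoothed, 2 higher with equal totals), a count that moved with single libraries: 1 or 2 rose without LCAT library 2 or 3 or empty vector library 1, 2 or 4, 4 rose without empty vector library 3, and 26 rose without LCAT library 4. Psma6 went from 1109, 1001, 1264 and 1038 to 2584, 1859, 1895 and 1304, with LCAT library 1 the highest. At the other end, chromatin and transcription regulators, with a median transcript of 8857 bases, fell in 21 of 43 cases and rose in none (median -0.65), but 8 fell when smoothed (median -0.20), 36 with equal totals and 1 with LCAT libraries 1 and 4 alone. Between 7 and 10 fell without LCAT library 2 or 3 or empty vector library 1, 2 or 4, and 36 without LCAT library 4. Bptf, a nucleosome remodelling factor, had 772, 832, 646 and 843 with the empty vector and 322, 291, 268 and 626 with LCAT. Of 27 genes of insulin, mTOR and AMPK signalling 6 fell and 1 rose (median -0.24), a share near the 20.5% of all genes that fell, with 3 lower and 4 higher when smoothed (median 0.02). With equal totals 13 fell (median -0.42), and 14 fell without LCAT library 4. Rictor, which defines mTOR complex 2, fell from 634, 701, 529.9 and 669 to 157, 248, 241 and 394.

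Few cell cycle genes passed the test. Of 30 genes of mitosis, none rose and 1, Kif23, fell, from 41.1–68.0 to 20.9–31.1 (median -0.07). Of 32 DNA replication genes 6 rose and 1 fell (median 0.19), beside 20.2% and 20.5% of all genes. With equal totals, or without LCAT library 2 or empty vector library 1, 2 or 4, 3 rose. Mcm10, which loads factors at origins of replication, rose from 106, 82.9, 76.8 and 97.0 to 381, 369, 556 and 525, a log2 change of 2.31 ± 0.18 (SE; adjusted p = 4.23e-05). Pcna, the sliding clamp, rose from 291–375 to 422–506, while Rrm2, which makes deoxynucleotides, fell from 531–668 to 417–510.2, a call lost without LCAT library 3 (-0.37) or empty vector library 2 (-0.36) or 3 (-0.33).

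Heat shock genes and cytosolic chaperones rose in 17 of 22 cases and fell in 1 (median 0.63, 0.51 smoothed). Hspb1, a small heat shock protein, had 287, 294, 334 and 245 with the empty vector and 2890.3, 1654, 1540.3 and 1048 with LCAT, and Hspa1b, an inducible HSP70 gene nearly identical to Hspa1a, had 658, 659, 714 and 627 against 5209.8, 3559, 2615 and 1853. LCAT library 1 was the highest and library 4 the lowest in these genes. Of 24 chaperones of the endoplasmic reticulum, 4 rose and none fell (median 0.24), beside 20.2% and 20.5% of all genes. With equal totals 1 rose and 1 fell. Herpud1 rose from 5417–6079 to 8136–9373. Without LCAT library 4, 11 rose, and 1 or 2 rose without LCAT library 2 or 3 or empty vector library 1, 2 or 4. NRF2 targets, which guard against oxidants, had 9 higher and 3 lower of 25 (median 0.29, 0.03 smoothed), and 4 or 5 higher with equal totals or without LCAT library 2 or 3 or any empty vector library. Ces2a, a carboxylesterase, rose from 430.0–539 to 1489–1822, and Slc7a11, the cystine transporter, fell from 1030.1, 912, 1234 and 912 to 579, 474, 471 and 539. Of 34 autophagy and lysosome genes 9 rose and 2 fell (median 0.19), beside 20.2% of all genes that rose; 5 rose and 5 fell with equal totals, and 5 rose without LCAT library 2 or empty vector library 1 or 4. Lamp2, of the lysosome membrane, rose from 5050.3–5612 to 7104–8529.7. Of 23 genes of metal handling 8 rose and 7 fell, beside 20.2% and 20.5% of all genes (median -0.01, 0.23 smoothed). Hamp, which encodes the hormone hepcidin, rose from 206, 319.5, 207 and 216 to 1304, 2305, 3091 and 2562, and Tfrc, the transferrin receptor, fell from 1245–1352 to 633–765. The clock genes Arntl and Per1 fell from 112–131 and 1387–1584 to 45.1–77.8 and 1065–1198, and Usp2, a clock output gene, rose from 339, 176, 347 and 360.0 to 918, 916, 785 and 885. Of that list 3 rose and 5 fell of 21, beside 20.2% and 20.5% of all genes. With equal totals 8 fell, and 5 rose when smoothed. The sources give no hour of sampling.

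Among 32 interferon-induced genes 10 fell and none rose (median -0.47, -0.50 smoothed), and 19 fell without LCAT library 1. Rsad2, viperin, fell from 679, 759, 648 and 688 to 324, 221, 182 and 162, and Oas3 and Ifih1, which detect double-stranded RNA, from 307–389 and 1071–1249 to 54.1–132 and 615–716. Antigen presentation rose in 8 and fell in 1 of 20 cases (median 0.61, 0.17 smoothed), and 13 rose without LCAT library 4. The smallest p-values among those that rose belonged to class II genes: H2-Aa had 678, 600.0, 757 and 665 against 2095, 1637, 1682 and 1315, and Cd74, the invariant chain, had 2198, 1999, 2381 and 1944 against 6383, 5146, 5289 and 4024. Nlrc5, the activator of class I genes, fell from 668–868 to 352–471. Acute phase genes fell in 12 and rose in 3 of 27 cases (median -0.44, -0.45 smoothed). Steap4, a metalloreductase induced by interleukin-6, fell from 7719, 7810.3, 7513 and 7819 to 2393, 2722, 2468 and 3016. The 26 cytokines, chemokines and receptors tested held 10 that rose and 4 that fell (2 without LCAT library 2 or 3 or empty vector library 1, 2 or 3), among them Il1a, which rose from 8.77, 4.88, 4.39 and 6.12 to 23.3, 35.2, 36.5 and 46.4, and Tnfaip3, which restrains NF-kappaB and fell from 209.7–255 to 131–146. Coagulation and complement genes rose in 14 and fell in 4 of 35 cases (median 0.19), but 11 rose and 9 fell with equal totals, and 12 rose and 7 fell when smoothed. The members included Serpinc1, antithrombin, up from 9074–9677 to 14476–17563 and A2m down from 167–215 to 6.22–34.0. Their falls numbered 7 without LCAT library 1 and 2 without empty vector library 1 or 4.

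Extracellular matrix genes fell in 17 and rose in 10 of 33 cases (median -0.60, -0.29 smoothed). Beside Fn1, Loxl2, which crosslinks collagen, fell from 576, 659, 568 and 575 to 152, 186, 129 and 158, and Col4a2 of the basement membrane from 3364, 3740.5, 3226 and 3461 to 1246, 1519, 1331 and 1595. Lumican (Lum) rose from 146, 138, 149 and 147 to 288, 336, 387 and 383. Of 15 markers of stellate cells and fibroblasts, the cells that make much of the matrix, 7 rose and 1 fell. Their summed level was 10868–11365 in empty vector libraries and 10830.2–14261 in LCAT libraries, with overlap. Leaving out LCAT library 3 gave 4 that rose. Decorin (Dcn) rose from 605–690.3 to 1020.5–2548, and Col1a1, the marker that fell, went from 2788–2997 to 1551–2366.

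Markers of other liver cells moved with treatment. Of 15 Kupffer cell and macrophage markers 14 rose and 1 fell (median 1.27, 1.61 smoothed), and their summed level went from 4251–4845 to 8925–10746. Clec4f, a receptor particular to Kupffer cells in mice, had 101, 58.5, 30.7 and 83.9 against 411, 879, 1116 and 1125, Cd5l had 129, 76.8, 70.2 and 99.6 against 425, 736, 915 and 923, and the scavenger receptor gene Marco had 6.14, 4.88, 0 and 0 against 7.78, 184, 272 and 299.8. LCAT library 1 was the lowest LCAT library for each, and close to the empty vector for Marco. Csf1r, the receptor for a growth factor of macrophages, rose from 315–360.0 to 646–809.7, while Cd68, of macrophage lysosomes, was the marker that fell, from 574, 596, 513 and 555 to 257, 298, 259.8 and 162. Endothelial markers rose in 10 and fell in 2 of 16 cases (median 1.19, 1.33 smoothed), with a summed level of 4905–5631 and 5967–9658. Those that rose included Clec4g, Stab2 and Gpr182, which mark the sinusoids of the liver: Clec4g had 54.4, 20.7, 8.78 and 37.6 against 255, 581, 596 and 598, and Gpr182 had 117, 91.5, 104 and 98.7 against 338, 479, 560.4 and 583. The 2 that fell, Cdh5 and Pecam1, went from 1001–1213 and 868–957 to 381–599.6 and 521–627. No other marker of the 16, among them Kdr, Tek, Tie1, Vwf and Eng, was called lower. Of 15 cholangiocyte markers 8 rose and 2 fell, with Krt7 from 21.1, 17.1, 24.1 and 25.3 to 119.8, 161, 136 and 147 and Epcam from 36.9, 42.7, 34.0 and 32.3 to 131, 289, 365 and 403; their summed level, most of it Spp1, fell from 72775–90132 to 26881–34736. Monocyte and dendritic cell markers had 3 higher and 2 lower of 10, beside 20.2% and 20.5% of all genes. Lyz2 went up from 506–653 to 1535–2355 and Mpeg1 down from 9518–11065 to 3599–7112. Markers of T cells, NK cells and B cells were few, with 5, 2 and 3 tested. Jchain, of plasma cells, rose from 15.8, 14.6, 17.6 and 16.6 to 94.9, 109, 139 and 114. Hemoglobin messages fell, Hbb-bs from 2645, 2489, 2733 and 2347 to 702, 812, 1055 and 933, whereas Alas2, the heme synthesis enzyme of red cell precursors, rose from 417, 384, 362 and 401 to 1011, 1247, 1405 and 1312. The pancreatic genes Ctrb1 and Cela2a had no read with the empty vector and 143, 50.6, 33.4 and 0 and 66.9, 41.8, 19.8 and 0 with LCAT, with groups that overlapped at 0 and calls lost without any 1 library other than LCAT library 4. Cela1, the other of 3 pancreatic acinar markers tested, fell (log2 change -0.50), a call lost without any 1 library other than LCAT library 1. The summed level of that list was 659.8–810.7 with the empty vector and 381.7–1149.6 with LCAT, with overlap. The part of cell makeup in the gene lists above was not tested.

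The change with LCAT was set against that with ovariectomy, in a fit over all 16 libraries that tested the difference of the 2 effects. The experiments share no libraries. The 4 Y-linked genes summed to 1604 to 2531 in the vector libraries and to 0.675 to 7.38 in the libraries of the female surgery mice, so that sex cannot be told apart from the other differences between the experiments. The effects differed for 5897 of 13166 genes (44.8%). Among respiratory chain genes 43 of 45 differed, with a median log2 change of -0.35 with ovariectomy, and among genes of mitosis 29 of 30, with a median of 3.77 with ovariectomy. Gnmt had an ovariectomy effect of -2.29 and a difference of 4.65 ± 0.20 (SE; adjusted p = 7.25e-10), and Slc10a1 one of -2.12 and a difference of 5.13 ± 0.22 (SE; adjusted p = 7.25e-10). Both rose with LCAT and fell with ovariectomy. Igf2 and Spp1 went the other way, with ovariectomy effects of 1.68 and 1.96 and differences of -5.05 ± 0.56 (SE; adjusted p = 5.12e-06) and -3.46 ± 0.35 (SE; adjusted p = 2.4e-06). Lcat had -0.74 with ovariectomy and a difference of 1.28 ± 0.16 (SE; adjusted p = 1.78e-05). For Slc2a1 the ovariectomy effect was -0.44 and the difference -2.66 ± 0.15 (SE; adjusted p = 1.54e-08), a fall in both experiments that was larger with LCAT. Spearman's rho with transcript length was 0.03 for the ovariectomy effect, beside -0.40 for LCAT.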

How the data were processed

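Polyadenylated liver RNA was extracted with TRIzol and sequenced from BGI libraries, per the labels. The programs FastQC, HISAT2, SAMtools, StringTie and the build mm10 are named in the submitters' processing notes; versions, counting tool and use of strand are unstated there. The deposited signal values are read counts that the authors divided by 1 size factor per library. Multiplied back, 100% were whole reads within 0.01 read, and the size factors match those of the median-of-ratios method over 16 libraries. Such scaling does not see a change in total RNA per cell.

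The 8 vector libraries held 12562943 to 20659336 reads. Genes averaging at least 10 entered limma as log2(value + 1) (limma 3.58.1, R 4.3.3, trended and robust prior), with Benjamini-Hochberg adjustment at 0.05; log2 changes on that scale understate low genes. On the recovered reads, edgeR 4.0.16 called 2898 genes higher and 2484 lower, and DESeq2 1.42.0 called 3104 and 2962, with 24 adjusted p left missing. Other alternatives were pseudocounts of 0.5 and 5, other filters, TMM, equal totals, all 16 libraries, a replicate block, library weights, no trended prior, a 2-fold test, smoothing of length and GC content (lowess span 0.3), and subsets of libraries. The code was checked on simulated counts.

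Of 16793 genes, 16479 matched GENCODE M21, which gave coordinates and lengths, and 22 names had become dates. Overlapping genes and near-identical copies are uncertain. The gene groups, lists and tests were chosen with earlier results of these data known. Genes were named by rule: Lcat; the 15 largest called changes each way among genes averaging at least 50 whose groups did not overlap; the 8 most abundant each way with a change of at least 2-fold; and in each list the 3 smallest p in the more frequent direction and 1 in the other. Some genes that the rule picked are not reported here.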

Additional observations from a re-analysis of the deposited data

Results flagged for a closer look

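In 29 of 460 groups of 4 libraries, 1 library lay so far from the other 3 that its gap to the nearest, over the whole range, exceeded Dixon's critical value; chance gives such a gap in about 1 of 20 groups. All values are normalized read counts. The value stood above the rest of its group for Aqp5 in empty vector library 1 (10.5; others 0 in each), Adnp in LCAT overexpression library 2 (486; others 0 to 40.2), Cpne1 in LCAT overexpression library 4 (227; others 0 to 6.26) and Tdrd12 in LCAT overexpression library 1 (18.7; others 0 in each). So did Spp1 in empty vector library 3 (84682; others 67413 to 69260.1), Fabp1 in LCAT overexpression library 3 (63589; others 51348 to 53227), Bptf in LCAT overexpression library 4 (626; others 268 to 322) and Hamp in empty vector library 2 (319.5; others 206 to 216). Single high libraries were also found for Loxl2 in empty vector library 2 (659; others 568 to 576), Krt19 in empty vector library 1 (46.5; others 25.2 to 28.8), Sult2a1 in LCAT overexpression library 1 (57.6; others 24.7 to 28.6) and Fga in empty vector library 1 (130261; others 123186 to 123837). The last of these were Des in LCAT overexpression library 3 (121; others 93.3 to 96.8) and Upk3b in empty vector library 2 (67.1; others 35.1 to 40.2). The value stood below the rest of its group for Lcat in LCAT overexpression library 4 (4531; others 5014 to 5106), Vgf in empty vector library 4 (142; others 327 to 352), Mrpl3 in empty vector library 2 (255; others 279 to 280.4) and Ei24 in LCAT overexpression library 1 (2954; others 3064 to 3079). Likewise low were Chac1 in empty vector library 3 (149; others 161 to 162), C6 in empty vector library 3 (2387; others 2738 to 2785), Nr1h4 in LCAT overexpression library 4 (1950.1; others 2156 to 2193) and Usp2 in empty vector library 2 (176; others 339 to 360.0). Single low libraries were also found for Hspa1a in empty vector library 4 (454), Tfe3 in LCAT overexpression library 3 (584; others 611 to 616), Mpeg1 in empty vector library 3 (9518; others 10865 to 11065) and Klrb1c in LCAT overexpression library 3 (8.35; others 15.5 to 16.5). The last low ones were Oit3 in empty vector library 3 (19.7; others 48.3 to 51.5), Cdh5 in empty vector library 3 (1001; others 1190.3 to 1213) and Acta1 in empty vector library 4 (56.8; others 65.8 to 66.9). Empty vector libraries 1 to 4 held 3, 5, 6 and 3 of these values, and LCAT libraries 1 to 4 held 3, 1, 4 and 4. Adnp and Cpne1 passed in 15 and 20 of 24 alternatives.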

How the results depend on the processing

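Counts of genes higher and lower with LCAT stayed within 1.5 times of 2651 and 2681 in all but 3 of 24 alternatives. They were 1067 and 1147 with LCAT libraries 1 and 4 alone, 4064 and 4164 with library weights, and 226 and 189 in the 2-fold test. Leaving out 1 library at a time gave 1934 to 3363 higher and 1957 to 3477 lower. The labels number the libraries of both groups. Same-numbered libraries had deviations correlated at -0.03, -0.03, -0.01 and 0.12, and libraries of unlike number at -0.18 to 0.19. These values show no pairing by number and cannot exclude one. The replicate block gave 2231 higher and 2327 lower. LCAT libraries 2 and 3 alone gave 3525 and 3761. Genes whose LCAT effect differed from that of ovariectomy numbered 5283 to 6657 with 1 library left out, beside 5897.

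Lcat passed in 18 of 24 alternatives. Its log2 change was 0.14 (adjusted p = 0.501) with length and GC content smoothed out, 0.35 (adjusted p = 0.0679) with equal totals, 0.49 (adjusted p = 0.141) with LCAT libraries 1 and 4 alone, and 0.54 in the 2-fold test (adjusted p = 1), and it ran from 0.47 to 0.68 with 1 library left out. For 229 other named genes, 5167 of 5485 gene and setting pairs kept direction and call, 316 lost the call and 2 reversed, Hspa4l to 0.21 and Rpl10 to -0.062, both when smoothed. The cause was not tested. The call of 175 of these genes held in every alternative other than the 2-fold test. With 3 reads as the floor, levels below 2.62 to 4.67 normalized counts per library are not resolved; floors cover counting error only.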
